A study of Mus musculus with 4 samples.

Results

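The genes described here are those of cholesterol synthesis, of the sterol-sensing SREBP system that controls it, and of sterol transport and efflux. They were taken as a list of 30 gene symbols, and all 30 were found among the 17958 genes of the deposited table. The list holds 18 enzymes that lead from acetyl-CoA units to cholesterol, the branch enzyme Ggps1, 5 genes of SREBP sensing and processing (Insig1, Insig2, Srebf1, Srebf2, Scap), 3 sterol carriers (Stard4, Npc1, Npc2) and 3 targets of the oxysterol receptor LXR (Abca1, Abcg1, Mylip). The list is defined by pathway and sets no threshold on a measured value.

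The study sequenced mRNA of mouse epidermal keratinocytes. There were 2 IL-36Ra-cKO libraries, with 2 IL-36Rafl/fl libraries as controls. The protein named is the secreted antagonist of the IL-36 receptor, and cKO and fl/fl stand for a conditional knockout and the floxed allele from which one is made. The genotype field calls the cKO libraries an IL-36Ra knockdown and the fl/fl libraries WT, and no library was treated. The labels used here give neither the Cre driver, nor the part of the gene to be deleted, nor the age or sex of the mice, nor whether replicate libraries stem from different mice, so p-values measure only the spread between these libraries, which may be technical.

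Total estimated counts ran from 14622791 to 16490602 per library. The gene of the antagonist, listed under its older symbol Il1f5, was not lost: it had 3258 and 2508 counts in the cKO libraries, against 3743 and 3489 in the fl/fl libraries (log2 fold change -0.24 ± 0.24, SE). Each direction below is therefore between libraries as labelled. Transcripts of 4 Y-linked genes summed to 4403 and 5366 counts in the cKO libraries, against 55 and 84 in the fl/fl libraries, so an apparent difference in sex cannot be told apart from the genotype label. The 17 keratinocyte markers examined were all read, and summed to 35359 and 33858 TPM (a level per gene length, scaled to the library) in the cKO libraries, against 35514 and 29264 TPM in the fl/fl libraries. Markers of hair follicle, skeletal muscle, fat and dermis were read as well, so the material was not keratinocytes alone. In such bulk RNA, fewer cells of a type and less RNA per cell cannot be told apart.

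Cholesterol is one of the barrier lipids of the epidermis, where keratinocytes make it themselves and release it between the cells of the cornified layer together with ceramides and fatty acids. Its synthesis is controlled by SREBP transcription factors, which are held in the endoplasmic reticulum by SCAP bound to INSIG proteins while sterols are plentiful. When sterols run low, SCAP carries SREBP to the Golgi, where it is cut, and the released part enters the nucleus and raises transcription of the enzymes, together with the factor NF-Y that binds CCAAT boxes. LXR works the other way round, since it is activated by oxysterols and raises the genes of cholesterol export.

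Promoter sequences were read for the 24 of the 30 genes that had a RefSeq window in mouse build GRCm38.p6, each window holding 250 bases before and 50 bases after an annotated start. The 6 others (Fdps, Fdft1, Sqle, Stard4, Npc1, Abcg1) are named only. Windows were searched on both strands for the sterol response element core TCACNCCAC, the NF-Y box CCAAT, the E-box CACGTG, and an LXR direct repeat in a full form (AGGTCA repeated after 4 bases) and a relaxed form (GGTNA repeated after 5 bases). A CCAAT box was found for 21 of the 24 genes (87.5%), against 42.5% of the 11422 tested genes that had a window and 37.4% of all 32851 windows. The 3 genes with none were Acat2, Scap and Abca1. The sterol response element core was found for 1 of the 24, Hmgcs1, against 1.46% of tested genes with a window and 1.24% of all windows. Only that exact form was searched, so a window without it may still hold another form of the element. The E-box was found for 6 of the 24 (25.0%), against 11.1% of tested genes and 7.15% of all windows. The relaxed LXR repeat was found for Abca1 and Srebf1, against 0.595% of tested genes and 0.718% of all windows, and the full form for none of the 24, none of the tested genes and 0.015% of all windows. A match describes the letters of a window and does not show that a factor binds there.

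These 5 windows are shown because the results turn on their genes: Hmgcs1 and Idi1 had the largest differences of any synthesis enzyme, Mvk lies between them in the pathway and its value lay on the other side of 0, without passing any limit, Hsd17b7 had the largest difference after squalene, and Abca1 is the efflux gene with the largest difference. Each is written 5′ to 3′ on the gene's own strand, with every motif found in capitals (ATTGG is CCAAT on the other strand).
Hmgcs1 promoter (chr13:119690101-119690400, plus strand): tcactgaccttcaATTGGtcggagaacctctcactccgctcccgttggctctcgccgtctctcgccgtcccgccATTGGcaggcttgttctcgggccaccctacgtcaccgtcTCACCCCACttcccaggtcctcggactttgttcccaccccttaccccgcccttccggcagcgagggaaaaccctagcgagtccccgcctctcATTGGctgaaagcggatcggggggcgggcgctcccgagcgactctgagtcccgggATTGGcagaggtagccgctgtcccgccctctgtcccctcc
Idi1 promoter (chr13:8885356-8885655, plus strand): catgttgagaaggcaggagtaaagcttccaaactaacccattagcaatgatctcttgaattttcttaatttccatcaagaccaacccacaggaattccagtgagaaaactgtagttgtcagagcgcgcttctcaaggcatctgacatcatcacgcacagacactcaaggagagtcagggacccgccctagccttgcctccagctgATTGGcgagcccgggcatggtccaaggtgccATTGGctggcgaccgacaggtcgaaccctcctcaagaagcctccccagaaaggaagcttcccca
Mvk promoter (chr5:114444019-114444318, plus strand): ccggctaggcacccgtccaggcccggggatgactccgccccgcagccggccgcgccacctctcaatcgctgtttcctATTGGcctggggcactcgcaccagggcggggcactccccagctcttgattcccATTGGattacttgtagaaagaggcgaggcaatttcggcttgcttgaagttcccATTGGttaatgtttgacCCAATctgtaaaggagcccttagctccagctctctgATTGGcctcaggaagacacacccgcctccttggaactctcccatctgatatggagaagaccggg
Hsd17b7 promoter (chr1:169969156-169969455, minus strand): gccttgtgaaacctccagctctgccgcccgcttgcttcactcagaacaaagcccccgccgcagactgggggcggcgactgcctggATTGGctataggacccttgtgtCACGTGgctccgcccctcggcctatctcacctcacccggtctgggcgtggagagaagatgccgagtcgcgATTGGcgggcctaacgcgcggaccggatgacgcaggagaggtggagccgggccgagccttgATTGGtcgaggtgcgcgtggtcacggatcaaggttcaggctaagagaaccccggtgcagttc
Abca1 promoter (chr4:53159846-53160145, minus strand): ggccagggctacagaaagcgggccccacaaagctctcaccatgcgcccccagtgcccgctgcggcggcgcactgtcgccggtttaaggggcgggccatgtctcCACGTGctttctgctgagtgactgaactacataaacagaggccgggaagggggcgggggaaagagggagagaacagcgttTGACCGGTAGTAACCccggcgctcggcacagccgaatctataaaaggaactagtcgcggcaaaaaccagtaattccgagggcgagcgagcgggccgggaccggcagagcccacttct
The Hmgcs1 window carried the sterol response element core 137 bases before the start, with CCAAT boxes 176 and 45 bases before it among 4 in all. The Idi1 window had 2 CCAAT boxes, 45 and 14 bases before the start, and the Mvk window had 5. The Hsd17b7 window had 3 with an E-box 143 bases before the start. The Abca1 window had no CCAAT box, an E-box 147 bases before the start and the relaxed LXR repeat 67 bases before it. CCAAT boxes stood before Hmgcs1, Idi1 and Mvk, genes shown because of their values, and were found for 21 of the 24 genes in all. Whether the box goes with a difference was not tested.

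All 30 genes were abundant enough to be tested, with 145 to 16635 counts per library. None of the 30 passed an adjusted p of 0.05 in edgeR's quasi-likelihood test over 14459 genes, a threshold passed by 4 genes in all (0.0277%). Of those 4 genes, 3 were Y-linked (Ddx3y, Eif2s3y, Uty). The smallest adjusted p among the 30 was 0.0819, for Abcg1. At an unadjusted p under 0.05, 10 of the 30 differed (33.3%), against 32.1% of all genes tested. Of these, 7 were lower in the cKO libraries (Hmgcs1, Idi1, Hsd17b7, Ggps1, Insig2, Stard4, Abca1; 15.6% of all genes) and 3 higher (Srebf1, Scap, Abcg1; 16.5% of all genes). The share that differed was thus close to that of genes at large. The groups did not overlap for 21 of the 30 in CPM (counts scaled to library size), against 67.7% of all genes. Of these, 10 were higher in the cKO libraries (34.8% of all genes) and 11 lower (32.9% of all genes). Fold changes are given on the log2 scale as the cKO over the fl/fl level. Their median was -0.16 over the 30 and 0.00022 over all genes tested, with 17 of the 30 below 0 (50% of all genes). With 2 libraries against 2, an exact permutation test of a single value cannot give a p under 0.333.

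These counts moved with the tool. DESeq2 called 8 of the 30 at an adjusted p under 0.05, namely Hmgcs1, Idi1, Hsd17b7, Ggps1, Insig2, Stard4, Abca1 and Abcg1 (adjusted p 0.00413 to 0.0479), where it called 19.1% of all genes tested. At an adjusted p under 0.1, edgeR called 4 of the 30, against 15.2% of all genes. The median over the 30 moved with single libraries. It turned to 0.026 without cKO replicate 2 and was -0.39 without cKO replicate 1.

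**Figure D1:**
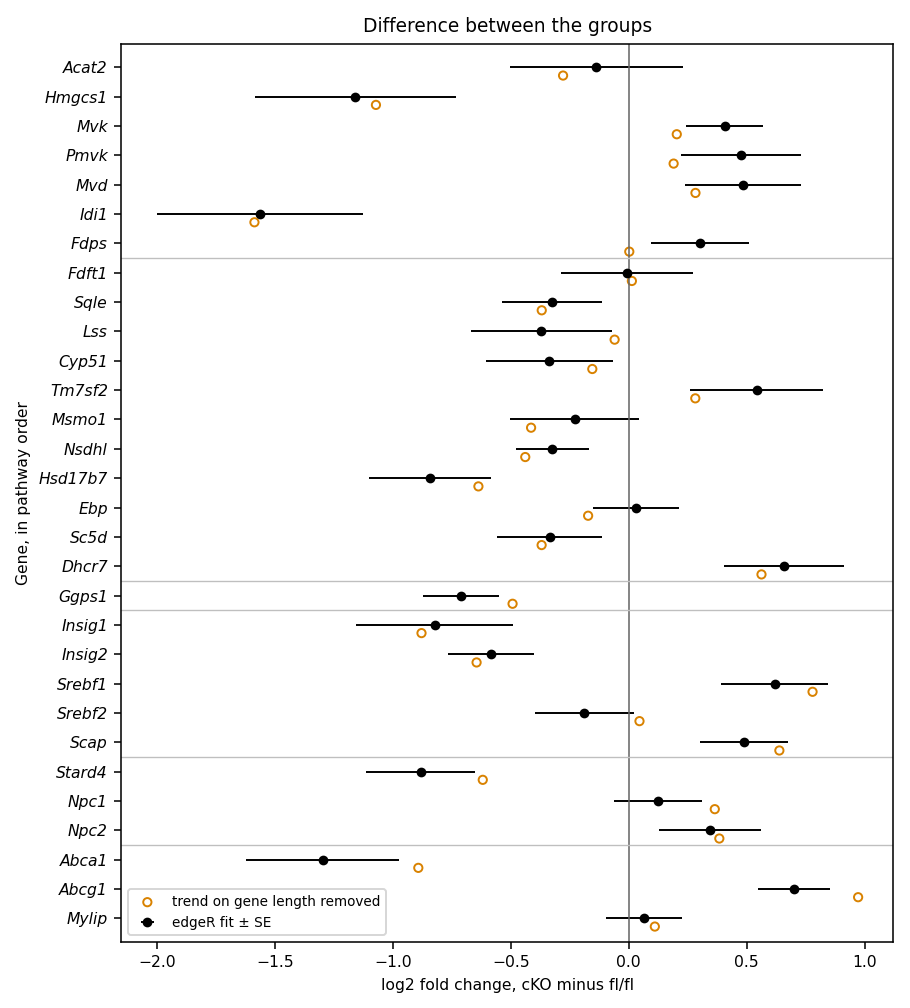
Log2 fold change (cKO minus fl/fl) of each of the 30 genes, in pathway order from top to bottom, with grey lines between the sections of the pathway. Black points with bars are the edgeR estimate ± SE, and open circles the estimate after a trend on gene length was removed; Idi1 at -1.56 and Abca1 at -1.30 lie farthest to the left and Abcg1 at 0.70 farthest to the right.

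The early part of the pathway joins acetyl-CoA units into mevalonate and turns mevalonate into farnesyl diphosphate. Of its 7 enzymes, Hmgcs1 and Idi1 had lower values in the cKO libraries with an unadjusted p under 0.05, and the 5 others did not reach that limit in either direction. Hmgcs1, the HMG-CoA synthase that condenses acetyl-CoA with acetoacetyl-CoA, had 141 and 129 TPM in the cKO libraries, against 483 and 205 TPM in the fl/fl libraries. The groups did not overlap, and fl/fl replicate 1 was more than double fl/fl replicate 2. Its log2 fold change was -1.16 ± 0.43 (SE, edgeR adjusted p = 0.147), and -0.47 without fl/fl replicate 1, the library that sets most of the difference. Idi1, the isopentenyl diphosphate isomerase that interconverts the building blocks of isoprenoids, had 114 and 79.7 TPM in the cKO libraries, against 449 and 207 TPM in the fl/fl libraries. Again the groups did not overlap and fl/fl replicate 1 was the highest library. The log2 fold change was -1.56 ± 0.44 (adjusted p = 0.104), the 95% interval of the fold, cKO over fl/fl, ran from 0.154 to 0.744, and the log2 value was -0.95 without fl/fl replicate 1.

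The kinases and the decarboxylase stand between those enzymes. Mvk, the mevalonate kinase, had 44.3 and 38.9 TPM in the cKO libraries, against 35.4 and 36.4 TPM in the fl/fl libraries, with a log2 fold change of 0.41 ± 0.16 (adjusted p = 0.164). Pmvk, the phosphomevalonate kinase, averaged 76.3 ± 19.1 TPM in the cKO libraries and 64.1 ± 0.403 TPM in the fl/fl libraries (SD, n = 2), and Mvd, the decarboxylase, 37.6 ± 10.1 TPM and 31.0 ± 1.60 TPM. For both, the higher cKO mean came from replicate 1, and in TPM the groups overlapped. Fdps, the farnesyl diphosphate synthase, averaged 246 ± 33.3 TPM in the cKO libraries and 232 ± 5.41 TPM in the fl/fl libraries, with cKO replicate 2 below both fl/fl libraries. Acat2, the cytosolic thiolase that opens the pathway, had 57.7 and 29.2 TPM in the cKO libraries, against 53.3 and 56.5 TPM in the fl/fl libraries, so that its cKO libraries lay on both sides of the fl/fl pair. The 95% intervals of the fold were 0.989 to 1.78 for Mvk, 0.879 to 2.21 for Pmvk and 0.469 to 1.76 for Acat2, so differences of those sizes cannot be set aside.

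Of the 11 squalene and sterol enzymes, 8 had log2 fold changes below 0 (50% of all genes), and the median was -0.32. An unadjusted p under 0.05 was reached by 1 of the 11, with a lower value in the cKO libraries (15.6% of all genes). Without cKO replicate 2, Msmo1 came to 0.052 and Fdft1 to 0.29. The gene that reached it, Hsd17b7, the ketosteroid reductase that acts in removing methyl groups from the sterol ring, had 20.5 and 14.7 TPM in the cKO libraries, against 41.1 and 30.1 TPM in the fl/fl libraries. All cKO values were below all fl/fl values. Its log2 fold change was -0.84 ± 0.26 (adjusted p = 0.115), from -1.13 without cKO replicate 1 to -0.61 without cKO replicate 2. Its partners in that step, the methyl oxidase Msmo1 and the dehydrogenase Nsdhl, averaged 248 ± 67.2 and 28.1 ± 2.02 TPM in the cKO libraries, against 335 ± 4.38 and 40.1 ± 0.693 TPM in the fl/fl libraries (SD, n = 2).

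Sqle, the squalene epoxidase and an early control point of the sterol branch, had 94.5 and 75.5 TPM in the cKO libraries, against 126 and 116 TPM in the fl/fl libraries (log2 fold change -0.33 ± 0.21, adjusted p = 0.322). The squalene synthase Fdft1 gave -0.0067 ± 0.28, the lanosterol synthase Lss -0.37 ± 0.30, the lanosterol demethylase Cyp51 -0.34 ± 0.27 and the desaturase Sc5d -0.34 ± 0.22, each within 2 SE of 0. Ebp, the sterol isomerase, averaged 67.1 ± 8.65 TPM in the cKO libraries and 75.7 ± 1.73 TPM in the fl/fl libraries. Its log2 fold change of 0.03 on the count scale was -0.18 on log2(TPM + 1), a scale on which the median of all genes also moved, to -0.16.

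Dhcr7 and Tm7sf2 reduce double bonds of the sterol ring, and neither reached an unadjusted p of 0.05. Dhcr7, which makes cholesterol from the sterol that is also the skin's vitamin D precursor, had 66.4 and 46.7 TPM in the cKO libraries, against 40.1 and 35.4 TPM in the fl/fl libraries. Both cKO values lay above both fl/fl values, and the log2 fold change was 0.66 ± 0.26 (adjusted p = 0.158), from 0.31 without cKO replicate 1 to 0.94 without cKO replicate 2. Tm7sf2, a sterol reductase acting earlier in the ring steps, averaged 13.2 ± 3.10 TPM in the cKO libraries and 10.5 ± 1.76 TPM in the fl/fl libraries (0.54 ± 0.28, adjusted p = 0.240), with TPM values that overlapped. For 5 of the 30 genes (Acat2, Pmvk, Fdft1, Dhcr7, Npc1) the estimated counts were not whole in at least one library, which means that some of their reads were shared out with other genes, and their values are less certain for it.

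**Figure D2:**
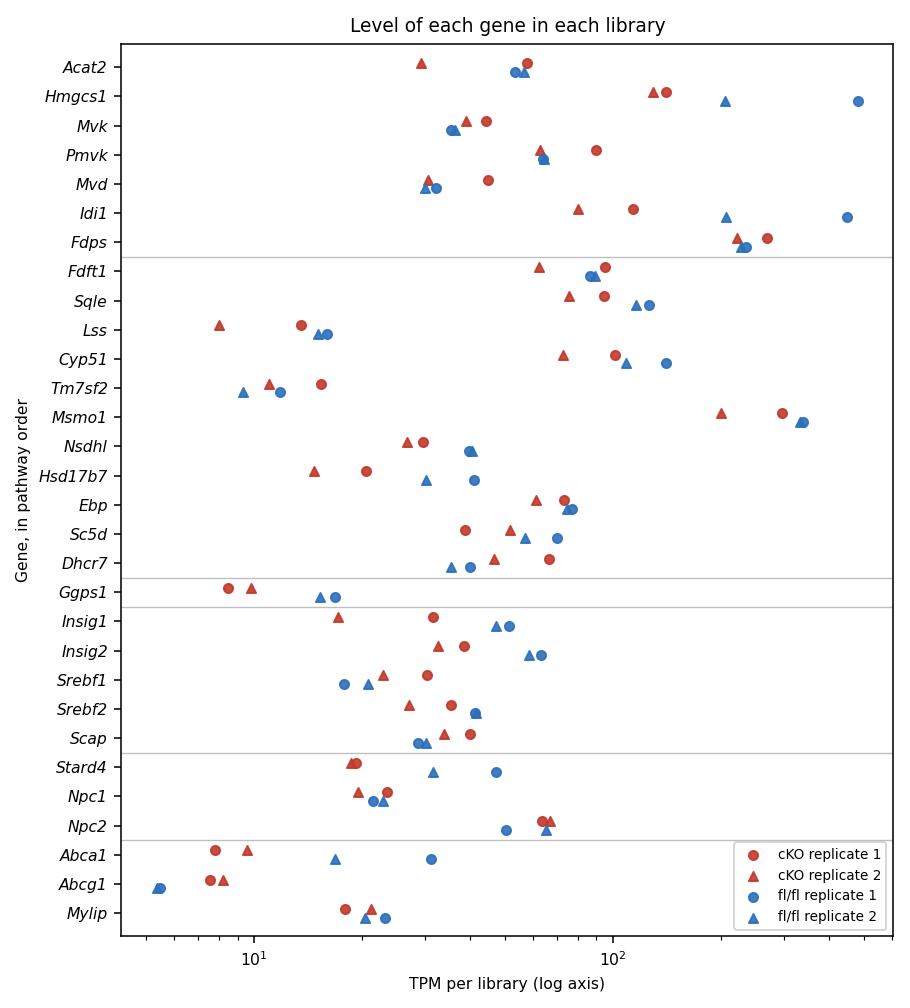
TPM of each of the 30 genes in each library on a log axis, genes in pathway order from top to bottom. Red symbols are the cKO libraries and blue symbols the fl/fl libraries, circles for replicate 1 and triangles for replicate 2; Hmgcs1 and Idi1 have their highest values, 483 and 449 TPM, in fl/fl replicate 1.

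Summed over the 18 synthesis enzymes, the level was 1605 and 1223 TPM in the cKO libraries, against 2338 and 1736 TPM in the fl/fl libraries. Hmgcs1 and Idi1, singled out after their values were seen, held most of that gap: together they came to 255 and 209 TPM in the cKO libraries, against 932 and 413 TPM in the fl/fl libraries. The 16 other enzymes summed to 1350 and 1014 TPM in the cKO libraries, against 1406 and 1324 TPM in the fl/fl libraries. For those 16, cKO replicate 1 lay within the fl/fl pair and cKO replicate 2 below it.

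The synthesis enzymes varied together inside the cKO group. In CPM, 17 of the 18 were higher in cKO replicate 1 than in cKO replicate 2, Sc5d being the exception, with a median ratio of 1.46. Over all 30 genes it was 24 (80%), and among all genes tested 51%. The ratio was 2.07 for Acat2, 1.77 for Lss and 1.92 for Insig1, itself an SREBP target. Between the fl/fl libraries 10 of the 18 enzymes were higher in replicate 1 (16 of the 30, 42.9% of all genes), with a median ratio of 1.03, though Hmgcs1 differed by 2.24 and Idi1 by 2.07. For 12 of the 18 enzymes the cKO libraries differed from each other by more than the group means did, against 33.1% of the 14286 tested genes read in both cKO libraries.

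**Figure D3:**
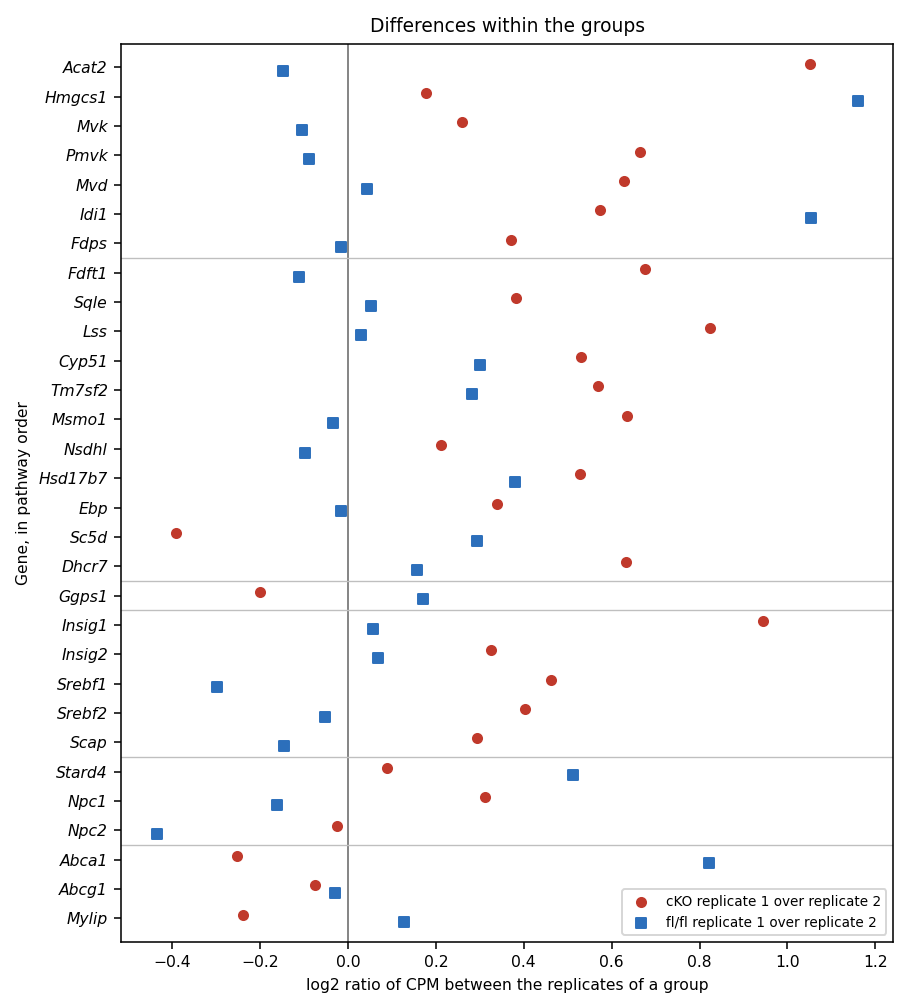
Log2 ratio of CPM between replicate 1 and replicate 2 of a group for each of the 30 genes, in pathway order from top to bottom, with red circles for the cKO pair and blue squares for the fl/fl pair. Red circles lie right of 0 for 24 of the 30 genes, and the blue squares of Hmgcs1 and Idi1 lie farthest right of their group.

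Markers of some other skin structures were higher in cKO replicate 1, as most of the enzymes were, and those of others were lower. Sebaceous glands make lipid in bulk, and 16 of the 17 sebaceous markers tested were higher in cKO replicate 1 than in cKO replicate 2 (51% of all genes). The fatty acid elongase Elovl3 had 84.7 and 9.23 TPM in the cKO libraries, against 82.9 and 99.4 TPM in the fl/fl libraries, the wax synthase Awat1 32.7 and 6.19 TPM, against 21.7 and 23.3 TPM, and the reductase Far2 44.4 and 6.30 TPM, against 33.3 and 40.6 TPM. Summed over the list, sebaceous markers came to 5866 and 3794 TPM in the cKO libraries, against 8241 and 9742 TPM in the fl/fl libraries. Most of each sum was Fabp5, which keratinocytes also express, at 4065 and 2855 TPM, against 6561 and 8147 TPM. Of the 17 tested, 12 had log2 fold changes below 0 (50% of all genes) and 5 above. At an unadjusted p under 0.05 in edgeR, 2 were higher (Dgat2, Acsbg1; 16.5% of all genes) and 1 lower (Mc5r; 15.6%). All 22 hair follicle markers were higher in cKO replicate 1 than in replicate 2 (51% of all genes). All 22 were also lower in both cKO libraries than in the fl/fl libraries (32.9% of all genes). Their sums were 3716 and 33.2 TPM in the cKO libraries, against 11295 and 11568 TPM in the fl/fl libraries. Skeletal muscle markers ran the other way inside the cKO group, at 90.0 and 2582 TPM, against 171 and 212 TPM in the fl/fl libraries. Dermal fibroblast markers did too, with 0 of 12 higher in cKO replicate 1 and sums of 1631 and 2895 TPM, against 1263 and 1694 TPM. Higher in cKO replicate 1 were 0 of 5 red blood cell, 2 of 8 endothelial and 2 of 10 macrophage and dendritic cell markers tested. The same held for 8 of 8 melanocyte, 10 of 12 adipocyte, 9 of 17 keratinocyte and 4 of 7 T cell markers. The part of these tissues in the level of the cholesterol genes was not tested. No marker of these lists was at 0 in all libraries. Of the 19 fatty acid genes driven by SREBP-1, 18 were also higher in cKO replicate 1 than in replicate 2 (51% of all genes).

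**Figure D4:**
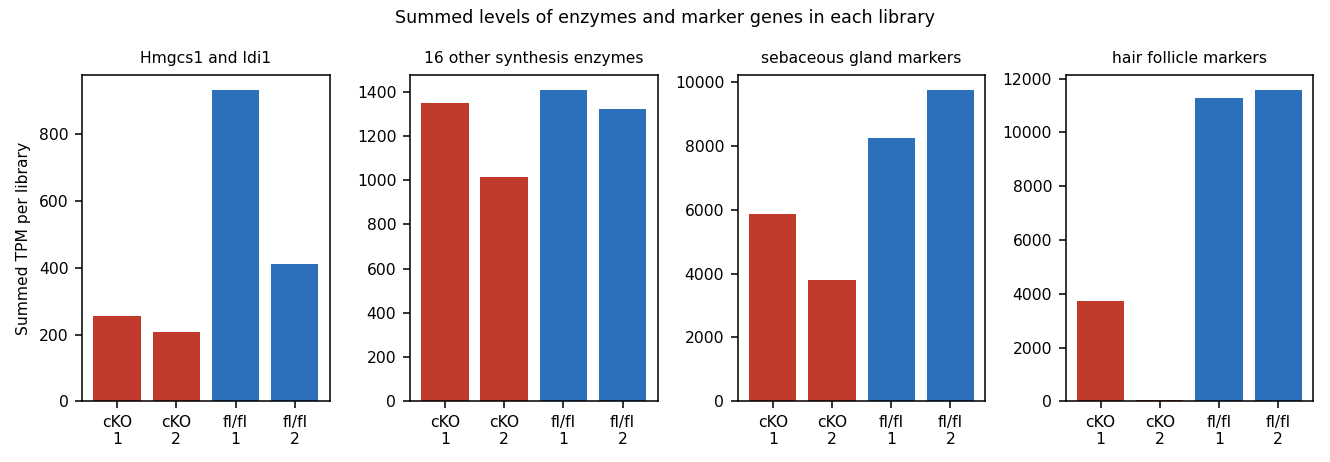
Summed TPM in each library of Hmgcs1 with Idi1, of the 16 other synthesis enzymes, of 18 sebaceous gland markers and of 22 hair follicle markers, cKO libraries in red and fl/fl libraries in blue, each panel with its own axis from 0. The 16 other enzymes stand at 1014 TPM in cKO replicate 2 and at 1324 to 1406 TPM in the other libraries, and hair follicle markers at 33.2 TPM in cKO replicate 2. Most of each sebaceous sum is Fabp5, which keratinocytes also express.

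Ggps1, which makes the geranylgeranyl diphosphate used to anchor small GTPases in membranes, branches off after farnesyl diphosphate. It had 8.47 and 9.79 TPM in the cKO libraries, against 16.8 and 15.2 TPM in the fl/fl libraries. Replicates lay close together and the groups did not overlap. The log2 fold change was -0.71 ± 0.16 (adjusted p = 0.0836), with -0.82 to -0.61 over the fits that left out 1 library. With a trend on gene length removed, it was -0.49.

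Among the sensing genes, none passed over all genes. At an unadjusted p under 0.05 Insig2 had a lower value in the cKO libraries and Srebf1 and Scap higher ones, while Insig1 and Srebf2 did not reach that limit. Insig1, whose protein retains SCAP and whose gene is itself raised by SREBP, had 31.6 and 17.1 TPM in the cKO libraries, against 51.3 and 47.2 TPM in the fl/fl libraries. Both cKO values lay below both fl/fl values, and the cKO libraries differed from each other by more than the fl/fl libraries did. Its log2 fold change was -0.82 ± 0.33 (adjusted p = 0.168). Without cKO replicate 1 it was -1.37 and without cKO replicate 2 it was -0.43, each from a fit with 1 cKO library. Insig2, the second retention protein, had 38.6 and 32.5 TPM in the cKO libraries, against 63.3 and 58.5 TPM in the fl/fl libraries. Here the replicates of each group lay close together, and the log2 fold change was -0.58 ± 0.18 (adjusted p = 0.118).

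Srebf1, which encodes SREBP-1, the form that drives fatty acid synthesis most strongly, had 30.4 and 22.9 TPM in the cKO libraries, against 17.8 and 20.8 TPM in the fl/fl libraries. The groups did not overlap, by a narrow gap, and the log2 fold change was 0.62 ± 0.23 (adjusted p = 0.147). Srebf2, which encodes SREBP-2, the main driver of cholesterol synthesis, had 35.5 and 27.0 TPM in the cKO libraries, against 41.4 and 41.5 TPM in the fl/fl libraries. The groups did not overlap in TPM but did in CPM, where the log2 fold change was -0.19 ± 0.21 (adjusted p = 0.546). Scap, the escort protein that carries SREBP to the Golgi, had 40.04 and 33.8 TPM in the cKO libraries, against 28.6 and 30.2 TPM in the fl/fl libraries, without overlap (0.49 ± 0.19, adjusted p = 0.156). Counts of mRNA do not show how much SREBP was cut.

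Of the carriers, Stard4, a cytosolic sterol transfer protein and SREBP target, had the largest difference. It had 19.2 and 18.6 TPM in the cKO libraries, against 47.1 and 31.6 TPM in the fl/fl libraries. The cKO libraries were nearly equal and both below the fl/fl pair, of which replicate 1 was again the higher. The log2 fold change was -0.88 ± 0.23 (adjusted p = 0.0969), and -0.61 without fl/fl replicate 1. Npc1 and Npc2, which hand cholesterol out of the lysosome one to the other, averaged 21.5 ± 2.80 and 65.2 ± 2.48 TPM in the cKO libraries, against 22.2 ± 1.05 and 57.8 ± 10.5 TPM in the fl/fl libraries (SD, n = 2), with adjusted p values of 0.650 and 0.309 in edgeR. On the count scale Npc1 was at 0.12, and on log2(TPM + 1) at -0.047.

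The LXR targets split. Abca1, the transporter that loads cholesterol onto apolipoproteins, had 7.80 and 9.55 TPM in the cKO libraries, against 31.1 and 16.8 TPM in the fl/fl libraries. Both cKO values lay below both fl/fl values, and fl/fl replicate 1 was the highest library by far. Its log2 fold change was -1.30 ± 0.32 (adjusted p = 0.0927), and -0.83 without fl/fl replicate 1. Abcg1, the transporter that passes cholesterol on to larger lipoprotein particles, had 7.52 and 8.17 TPM in the cKO libraries, against 5.48 and 5.35 TPM in the fl/fl libraries. Replicates agreed closely, and the log2 fold change of 0.70 ± 0.15 (adjusted p = 0.0819) held between 0.66 and 0.74 when any 1 library was left out. Mylip, the ubiquitin ligase that removes lipoprotein receptors from the cell surface, averaged 19.5 ± 2.28 TPM in the cKO libraries and 21.8 ± 1.94 TPM in the fl/fl libraries (0.06 ± 0.16 on the count scale, -0.15 on log2(TPM + 1)).

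Among all genes, differences moved with gene length. Tested genes were split by effective length into 3 parts of equal size. In the shortest (up to 1856 bases), the median log2 fold change was 0.35 over 8 of the 30 and 0.26 over all genes. In the middle part it was -0.33 over 11 of the 30 and -0.0036 over all genes, and in the longest (from 3410 bases) -0.34 over 11 of the 30 and -0.26 over all genes. Of the 7 synthesis enzymes with positive values, 6 had effective lengths of 978 to 1486 bases, and Dhcr7 had 2088. With the trend on length removed, Fdps came to 0.0026, Pmvk to 0.19, Mvk to 0.20 and Ebp to -0.17. Mvd and Tm7sf2 came to 0.28 each and Dhcr7 to 0.56. Hmgcs1 was then at -1.07, Idi1 at -1.59 and Abca1 at -0.89. Of the other genes lower at an unadjusted p under 0.05, Ggps1 came to -0.49, Stard4 to -0.62, Hsd17b7 to -0.64 and Insig2 to -0.64. Abcg1 and Srebf1, long genes with positive values, came to 0.97 and 0.78. The median over the 30 was -0.11 with the trend removed, against -0.16 with it. Libraries of 1 group also differed by length: from the shortest to the longest part, the median log2 ratio of replicate 1 over replicate 2 over all genes was 0.11, -0.0072 and -0.074 for the cKO pair, and -0.17, -0.052 and 0.072 for the fl/fl pair.

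**Figure D5:**
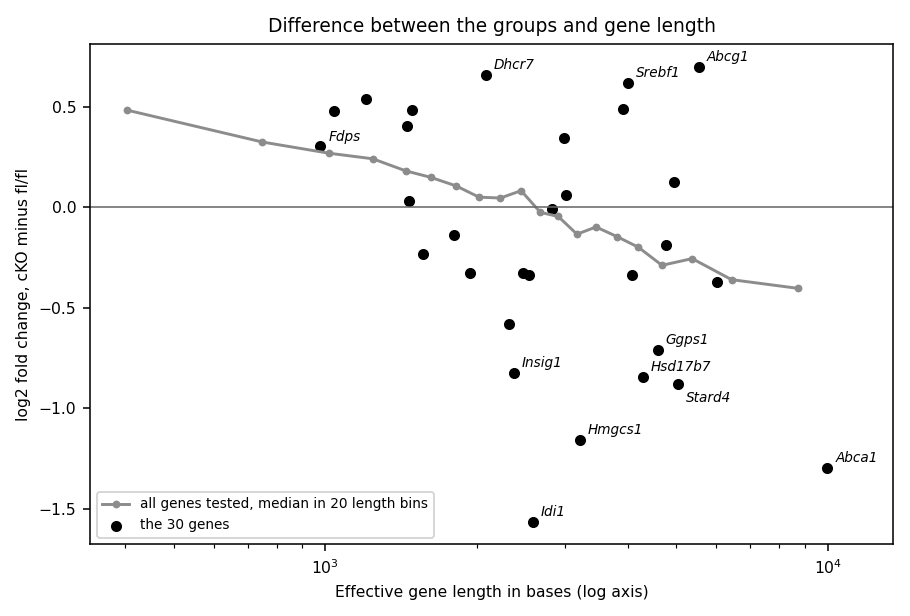
Log2 fold change (cKO minus fl/fl) against effective gene length in bases on a log axis, with black points for the 30 genes and a grey line for the median of all tested genes in 20 length bins. The grey line falls with length, and Idi1, Hmgcs1 and Abca1 lie well below it while Abcg1 and Srebf1 lie above it.

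Neighbouring pathways were read from lists of genes outside the 30. No member of them passed over all genes in edgeR. Among 19 fatty acid genes driven by SREBP-1, 2 had higher and 4 had lower values with an unadjusted p below 0.05, the limit used for each list here, and the median was 0.02. Over all genes that limit was passed by 16.5% with higher and 15.6% with lower values. Thrsp, a lipogenic regulator, had 80.0 and 82.0 TPM in the cKO libraries, against 3.67 and 13.2 TPM in the fl/fl libraries (log2 fold change 3.47 ± 0.62, adjusted p = 0.0740, from 2.82 to 4.70 with 1 library left out). Acsl3, an acyl-CoA synthetase of lipid droplets, had 9.69 and 6.62 TPM in the cKO libraries, against 23.3 and 24.1 TPM in the fl/fl libraries (-1.47 ± 0.25, adjusted p = 0.0726). Fads1, a fatty acid desaturase, had 5.84 and 5.43 TPM in the cKO libraries, against 11.2 and 12.9 TPM in the fl/fl libraries (-0.92 ± 0.19).

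Of the other genes listed here as LXR targets, 3 of 6 tested were higher by that limit (16.5% of all genes) and none lower (15.6%). Their median was 0.54, and 4 of the 6 had values above 0. Whether LXR acts on any of them in these cells was not tested. Abca7, a relative of Abca1, had 10.4 and 11.5 TPM in the cKO libraries, against 5.98 and 5.97 TPM in the fl/fl libraries (1.03 ± 0.14, adjusted p = 0.0669). Nr1h3, the gene of LXR alpha, had 4.46 and 4.60 TPM in the cKO libraries, against 1.66 and 2.61 TPM in the fl/fl libraries (1.30 ± 0.37), and the small GTPase gene Arl4c gave 0.51 ± 0.14. Macrophages also express these genes, and summed macrophage and dendritic cell markers stood at 405 and 487 TPM in the cKO libraries, against 262 and 437 TPM in the fl/fl libraries, with all 10 markers read. Most of that gap was Cd74, at 249 and 314 TPM in the cKO libraries, against 128 and 177 TPM in the fl/fl libraries. The other markers summed to 156 and 173 TPM in the cKO libraries, against 134 and 260 TPM in the fl/fl libraries, and 4 of the 10, Mrc1, Lyz2, Adgre1 and Fcgr1, had values below 0. Their part was not tested.

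Counts of the remaining lists stand beside the same shares of all genes, 16.5% higher and 15.6% lower. In sterol oxidation, sulfation and vitamin D metabolism, 1 of 9 genes was higher and 1 lower. Cyp27a1, the mitochondrial sterol hydroxylase, had 13.1 and 15.5 TPM in the cKO libraries, against 5.51 and 5.97 TPM in the fl/fl libraries (1.53 ± 0.19, adjusted p = 0.0669). The one that was lower, the vitamin D hydroxylase Cyp24a1, was barely read, at 0.03 and 0 TPM in the cKO libraries, against 0.37 and 0.30 TPM in the fl/fl libraries. Among 17 tested genes of sterol uptake, transport and storage, 2 were higher and none lower (median -7.34e-05), namely Gramd1a (1.01 ± 0.18) and Stard3 (0.54 ± 0.19), both sterol transfer proteins at membrane contacts. Of 16 other regulators of SREBP, 2 were higher and 3 lower (median -0.10). They included the site-2 protease gene Mbtps2 at -1.24 ± 0.43 and Nr1h2, the gene of LXR beta, at 0.69 ± 0.21. Mbtps2 had 6.04 and 7.14 TPM in the cKO libraries, against 25.15 and 10.13 TPM in the fl/fl libraries, with fl/fl replicate 1 the highest by far. The other regulator with a higher value was Nr1h3, which was also counted among the LXR targets. Of 14 enzymes of isoprenoid and prenyl metabolism, 3 were higher and 3 lower (median -0.02), among them the prenylprotein protease Zmpste24 at -0.89 ± 0.18, the ubiquinone enzyme Coq2 at 0.52 ± 0.14 and the dolichol enzyme Nus1 at -0.92 ± 0.27.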

How the data were processed

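Per the labels' protocols, RNA was extracted with Trizol, polyadenylated mRNA was enriched and fragmented, and libraries were sequenced as DNA nanoballs. As the submitters' processing notes list them, the tools were RSEM 1.3.1, Bowtie2 2.3.4.3 and DESeq2 1.4.5, and the build GRCm39, with no role stated; no label names annotation or filters. The deposited estimated counts are unscaled, per the file headers. TPM and FPKM values were deposited by the authors. The deposited normalized counts, a signal scaled per library, were not used.

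Rounded counts went into edgeR 4.0.16 (under R 4.3.3, beside limma 3.58.1; quasi-likelihood F test, TMM scaling, default filter, group as the one term, Benjamini-Hochberg adjustment over 14459 genes). DESeq2 1.42.0 was an alternative. The edgeR fit left 2 residual degrees of freedom. Its procedure was tested on simulated counts that spread less than these libraries and had no trend on length. That test does not show how well the calls hold here. Effective length was the count divided by FPKM and library total. Strand is not stated, so overlapping genes cannot be told apart.

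Values in every library are given for genes with an unadjusted p under 0.05 and no overlap, and for the sensing genes; a few others were added after their values were seen. Of each neighbouring list, up to 3 genes with the smallest p and no overlap were named. The 30 genes and all lists were chosen with earlier results of these data known. Same-numbered libraries deviated in opposite directions (r = -0.13 across genes), and the labels give no pairing. Promoter sequences are from RefSeq (GRCm38.p6), matched by gene ID and symbol; no coordinates were converted.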

Additional observations from a re-analysis of the deposited data

How the results depend on the processing

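Of the 30 genes, 23 had the same direction in all 16 alternatives. The 7 others reversed in at least 1 alternative, with Acat2 and Fdft1 both coming to 0.29 without cKO replicate 2. Ebp gave -0.0068 with median-of-ratios factors and with DESeq2 (-0.0068), -0.18 on log2(TPM + 1) and on log2(TPM + 0.1) (-0.18), and -0.17 with the length trend removed. Fdft1 gave 0.060 with upper-quartile factors, 0.033 with library size only and 0.014 with the length trend removed. Mylip gave -0.15 and -0.16 and Npc1 -0.047 and -0.049 on the TPM scales, and Srebf2 0.046 with the length trend removed. With each library left out in turn, the range was -0.76 to 0.29 for Acat2, -0.15 to 0.19 for Ebp, -0.38 to 0.29 for Fdft1, -0.58 to 0.052 for Msmo1, -0.063 to 0.18 for Mylip and -0.040 to 0.27 for Npc1.

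The 4 genes called over all genes became 388 with upper-quartile factors, 1359 with library size only, 2762 with DESeq2 and 2201 at an adjusted p of 0.1, and 0 to 887 with 1 library left out (887 without cKO replicate 1). Of the 30, 2 were called with library size only (Idi1, Abca1), 8 with DESeq2, 4 at an adjusted p of 0.1 and 0 to 1 with 1 library left out. At an unadjusted p under 0.05, the higher ones numbered 5 with upper-quartile factors, 1 on log2(TPM + 1), 1 on log2(TPM + 0.1), 1 with the replicate block and 1 to 8 with 1 library left out, and the lower ones 2 to 9 with 1 library left out. The cause was not tested.

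The replicate number as a block called 4 genes over all and 0 of the 30. Because same-numbered libraries deviated oppositely, a crossed pairing was added after seeing the data; it called 0 genes and 0 of the 30. The median over the 30 ran from -0.42 to 0.026 over all alternatives. Removal of the length trend was also chosen after seeing the data. Depth was not varied, so what it limits was not tested.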
